A study of Solanum lycopersicum with 3 samples.

Results

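The miRNAs described here are miR1916, miR1917, miR1918, miR1919 and miR4376 of tomato. miR1916 to miR1919 belong to the younger, Solanaceae-centred part of the tomato miRNA repertoire. miR4376 is given by RefSeq as another name of MIR391, whose row is counted below among the conserved families. All were chosen by name from the list of counted mature miRNAs, taking each sly-miR row with one of these names and both arms where listed. The rule found 5 of the 634 listed miRNAs, all of them among the 125 that carry a known miRNA name. The rows were sly-miR1916, sly-miR1917, sly-miR1918, sly-miR1919a and sly-miR1919c-5p. miR4376 had 0 rows.

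The small RNA libraries came from unpollinated ovaries of wild-type UC82 plants, with 1 library per condition, each made from a pool of ovaries. AGL6sil ovaries were treated with dsRNA against AGL6 and IAA9sil ovaries with dsRNA against IAA9, at 5 µg of dsRNA on 1 mg of layered double hydroxide particles (LDHs) per ovary, injected into the flower pedicel. The ctrl ovaries were mock-treated with LDHs alone. Flower buds of all groups came from a population of 8 to 10 plants, were emasculated 6 h after injection and were collected after 5 days. AGL6 is a MADS-box transcription factor and IAA9 an Aux/IAA protein, and both hold back ovary growth before fertilization. The counts hold small RNAs only, so neither the transcripts of the silenced genes nor marker transcripts of the ovary were measured here.

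Most conserved plant miRNAs regulate transcription factors that are shared by all flowering plants, whereas young miRNAs are found in 1 plant family or fewer species and are often weakly expressed. In tomato, miR1917 is known to target splice variants of CTR4, a kinase of the ethylene pathway. miR1916 and miR1918 have been studied in tomato for their part in responses to drought or pathogens. miR4376 is known in tomato to regulate the mRNA of ACA10, a calcium pump, and to affect reproductive growth. No target is named here for miR1919.

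The mature sequence of 1 of the 5 miRNAs, sly-miR1919a, was listed with the study's supplementary data. It is shown because this miRNA had the largest differences among the 5 when counts were scaled by the median of all miRNAs, with bases 2 to 8 in capitals.
sly-miR1919a: aCGAGAGUcaucugugacagg
The sequence is 21 nt long and begins with A. Of the 46 known mature sequences listed with the study, which were chosen there for their change in these libraries, 12 began with A and 21 with U, and 37 were 21 nt long. In Arabidopsis the first base helps to decide which Argonaute protein a small RNA enters, with U preferred by AGO1 and A by AGO2. None of the other listed sequences had the same bases 2 to 8 as sly-miR1919a, which is a count of 0 among 45 sequences. Whether any of them shares targets with it was not tested.

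Names and neighbours of the miRNA genes were looked up in RefSeq's table for tomato (assembly SLM_r2.1), whose build may differ from that of the reads. Each of the 6 genes MIR1916, MIR1917, MIR1918, MIR1919a, MIR1919b and MIR1919c had 1 entry, all on the same chromosome. The miR1919 genes were close neighbours there. MIR1919c and MIR1919b had 1 annotated gene between them, and so had MIR1919b and MIR1919a, whereas 64 genes lay between MIR1919a and MIR1916. MIR1919b had 0 rows in the counts and MIR1919c had a single row, that of its 5p arm. RefSeq gives MIR4376 as another name of the gene MIR391, and sly-miR391 is listed in the counts. It is not among the 5 rows chosen by name, and its values are given at the end as those of the miRNA that RefSeq equates with miR4376.

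AGL6sil held 3116 reads of the 5 miRNAs, out of 1460919 counted miRNA reads, a share of 0.213% (95% Clopper-Pearson interval 0.206% to 0.221%). IAA9sil held 2611 of 1053000, or 0.248% (0.239% to 0.258%), and ctrl held 2683 of 1038064, or 0.258% (0.249% to 0.268%). The share was lowest in AGL6sil, where its interval did not overlap those of IAA9sil and ctrl. These shares depend on the rest of each library, since sly-miR162, the miRNA with the most reads, filled 44.2% of the AGL6sil library, 41.8% of IAA9sil and 34.8% of ctrl. All intervals are of counting error alone, and with 1 library per condition no comparison has a replicate check. The reads carry no molecular identifiers that would count molecules once, so copies of a molecule count as separate reads and the intervals may be too narrow.

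By number of reads, which is not a count of molecules, the miRNAs stood in the same order within each library, sly-miR1919c-5p, sly-miR1919a, sly-miR1917, sly-miR1916 and sly-miR1918. sly-miR1919c-5p was abundant, with 2861 reads in AGL6sil, 2263 in the IAA9sil library and 2249 in that of ctrl, and it ranked 25th, 28th and 31st of the 125 known miRNAs in these libraries. Of the reads of the 5 miRNAs it made up 91.8% in AGL6sil (interval 90.8% to 92.8%), against 86.7% (85.3% to 88.0%) for IAA9sil and 83.8% (82.4% to 85.2%) for ctrl. sly-miR1919a had 854 reads in all, of which AGL6sil held 176, IAA9sil 287 and ctrl the remainder. Per 1000000 counted miRNA reads (RPM) its level was 120.5 in AGL6sil (103.3 to 139.6), against 272.6 (241.9 to 306.0) for IAA9sil and 376.7 (340.3 to 415.9) for ctrl. It accounted for 5.65% of the reads of the 5 in AGL6sil (4.86% to 6.52%), for 11.0% (9.82% to 12.3%) of those in IAA9sil and for 14.6% (13.3% to 15.97%) of those in ctrl. Neither the intervals of its RPM nor those of its share overlapped between any pair of libraries, and the order from the lowest to the highest was AGL6sil, IAA9sil, ctrl. How many other miRNAs also had intervals apart was not counted, so this is not shown to be particular to sly-miR1919a.

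The remaining 3 miRNAs were counted at low depth. sly-miR1917, the miRNA linked to CTR4, had 63 reads in AGL6sil, against 48 for IAA9sil and 28 for ctrl. Its RPM was 43.1 in AGL6sil (33.1 to 55.2), 45.6 (33.6 to 60.4) for IAA9sil and 27.0 (17.9 to 39.0) for ctrl, with overlapping intervals. sly-miR1916 had 12 reads in AGL6sil, against 10 for IAA9sil and 12 for ctrl. AGL6sil held 4, IAA9sil 3 and ctrl 3 reads of sly-miR1918. The last of these totals 10 reads, so that sly-miR1918 was near the limit of detection in each library, and its counting interval overlapped that of its neighbour in abundance, sly-miR1916, in all 3 libraries. sly-miR1916 and sly-miR1917 overlapped in ctrl and not in AGL6sil or IAA9sil.

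**Figure D1:**
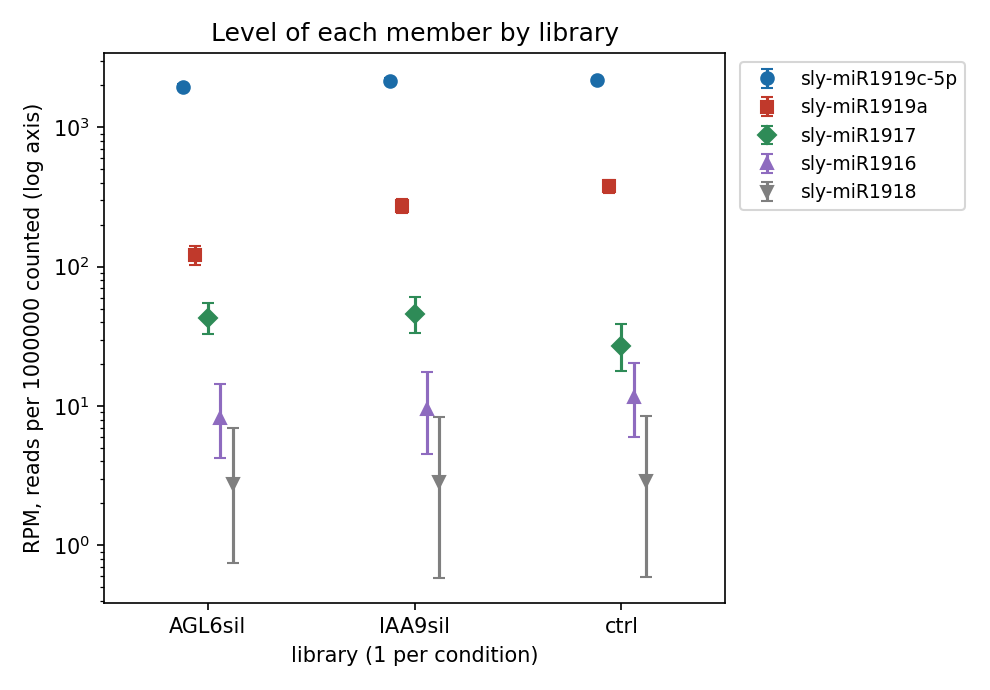
RPM (log axis) of each miRNA in the AGL6sil, IAA9sil and ctrl libraries, 1 library per condition; points are the values and bars the 95% Clopper-Pearson counting intervals, which are narrower than the marker for sly-miR1919c-5p. sly-miR1919a stood at 120.5 in AGL6sil, 272.6 for IAA9sil and 376.7 for ctrl with intervals that do not overlap, while sly-miR1916 and sly-miR1918 overlapped across libraries.

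To compare conditions, counts were scaled by the median count over all 634 miRNAs and expressed as the log2 ratio of one library to the other. A miRNA was called if it had 50 or more reads over the 3 libraries together and a log2 ratio of 1.5 or more in either direction, a 2.83-fold difference. The read limit was passed by 3 of the 5 miRNAs, sly-miR1917 with 139 reads, sly-miR1919a with 854 and sly-miR1919c-5p with 7373. sly-miR1916, with 34 reads, and sly-miR1918 were below it.

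AGL6-silenced ovaries were compared with mock-treated ovaries to find miRNAs that differ when this growth repressor is reduced. sly-miR1919a was the 1 miRNA of the 5 that was called, and it was lower in AGL6sil. Its 120.5 RPM in AGL6sil, against 376.7 RPM in ctrl, gave, after median scaling of the counts, a log2 ratio of -2.24 (interval -2.51 to -1.98), which is 4.73-fold lower in AGL6sil. In this comparison 21.4% of the 374 miRNAs with enough reads were called. Among the 91 known miRNAs past the limit, 47.3% were called and 42.9%, or 39 miRNAs, were called lower, against 4 called higher. This excess of lower calls depended on the scaling: with the median of the known miRNAs 14 of the 91 were called lower and 16 higher, and with the clean reads 15 lower and 11 higher. Counted from the most negative ratio, sly-miR1919a was 21st of the 91, a rank that does not depend on the scaling.

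sly-miR1919c-5p, from another gene of the same family, was not called. With 2861 reads in AGL6sil, which the scaling divides by 2.13, and 2249 in ctrl, its log2 ratio was -0.74 (-0.82 to -0.66), and it was 58th of the 91 from the lowest. At a 1.5-fold threshold it was called lower too, where 52.4% of the 374 miRNAs were called. sly-miR1917 had a log2 ratio of 0.08 (-0.58 to 0.78) from its 63 reads in AGL6sil and 28 in ctrl, an interval that included 0, and was 77th of the 91. The scarce miRNAs gave wide intervals. The log2 ratio was -1.09 (-2.37 to 0.19) for sly-miR1916 and -0.68 (-3.24 to 2.10) for sly-miR1918, so that a difference from ctrl was not detectable at this depth for either.

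IAA9-silenced ovaries were set against the same ctrl library. None of the 5 miRNAs was called here, where 6.95% of all miRNAs past the read limit and 6.59% of the known ones were. sly-miR1919a again had the most negative ratio of the 5, with 272.6 RPM in IAA9sil and 376.7 RPM in ctrl, a log2 ratio of -0.66 (-0.89 to -0.44) and the 20th place of 91 from the lowest. The ratio of sly-miR1919c-5p was -0.21 (-0.29 to -0.12), with 2263 reads in IAA9sil and 2249 in ctrl. sly-miR1917 had 48 reads in IAA9sil and 28 in ctrl and a ratio of 0.56 (-0.14 to 1.29), with 12 of the 91 known miRNAs above it. At a 1.5-fold threshold sly-miR1919a was called lower, where 37.2% of the 374 miRNAs were called. For sly-miR1916 the ratio was -0.48 (-1.85 to 0.86). sly-miR1918 had 3 reads in each of these libraries, and no fold is given for it.

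**Figure D2:**
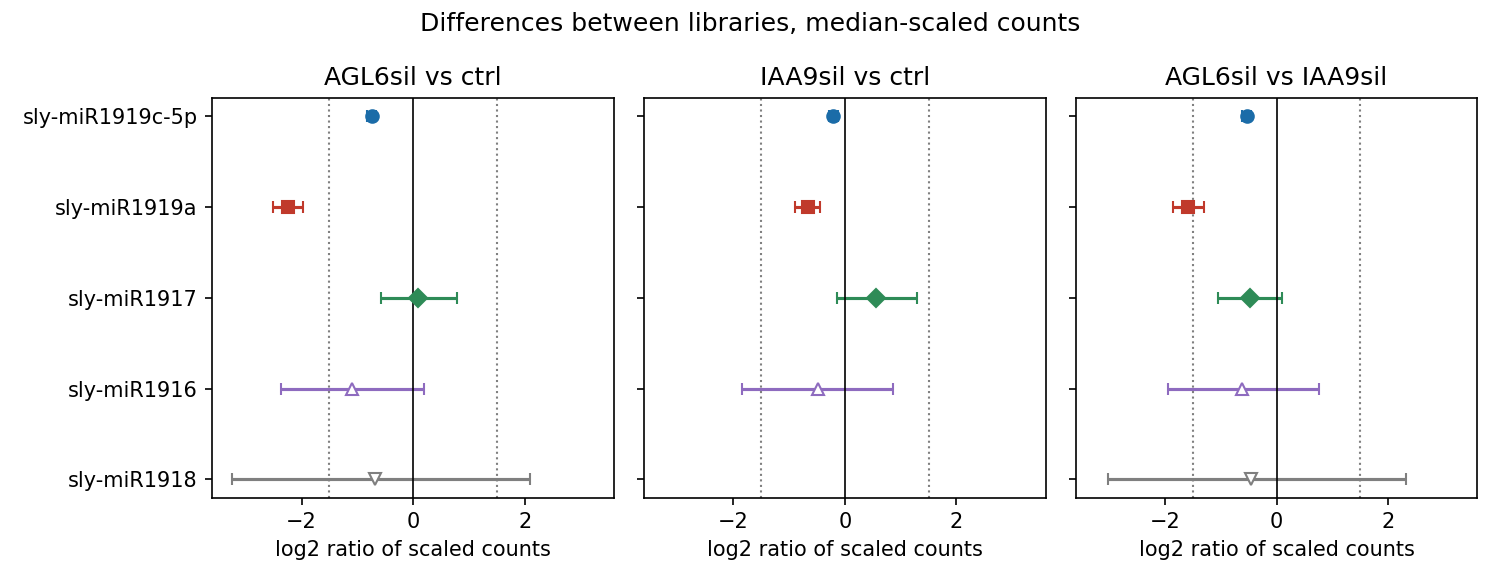
Log2 ratios of median-scaled counts (horizontal axes) for AGL6sil over ctrl, IAA9sil over ctrl and AGL6sil over IAA9sil, with 1 row per miRNA; bars are 95% counting intervals, dotted lines mark a log2 ratio of 1.5 in either direction, and open symbols have fewer than 50 reads in total; sly-miR1918 is left out where both libraries had 3 reads. sly-miR1919a lies past the lower line in AGL6sil against ctrl, at -2.24, and in AGL6sil against IAA9sil, at -1.58, and inside it in IAA9sil against ctrl, at -0.66.

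In the direct comparison of AGL6sil with IAA9sil, sly-miR1919a was again the single miRNA called of the 5. Its log2 ratio of AGL6sil to IAA9sil was -1.58 (-1.86 to -1.30), from 176 reads in AGL6sil and 287 in IAA9sil, and the interval included the threshold. It was called in 2 of the 8 scalings described with the methods. In this comparison 21.4% of all 374 miRNAs and 39.6% of the 91 known ones were called. sly-miR1919c-5p had a ratio of -0.54 (-0.62 to -0.46) and sly-miR1917 one of -0.48 (-1.05 to 0.09). Both were negative in 5 of the 8 scalings and positive in 3, with ranges of -0.54 to 0.74 and of -0.48 to 0.80, while sly-miR1919a was negative in all 8, between -1.58 and -0.30. sly-miR1916 was at -0.61 (-1.95 to 0.76) and sly-miR1918 at -0.46 (-3.02 to 2.31).

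The direction of several of these ratios depended on the scaling. The median count of all miRNAs was 33 in AGL6sil and 15.5 in ctrl, whereas that of the known miRNAs was 96 in AGL6sil and 126 in ctrl. Across the 8 scalings sly-miR1919a was lower in AGL6sil than in ctrl in all 8, with log2 ratios between -2.24 and -0.76, and it was called in 4. sly-miR1919c-5p lay between -0.74 and 0.74 and was below ctrl in 4 scalings and above it in the other 4. sly-miR1917 was above ctrl in all 8, between 0.08 and 1.56, and was called higher in 1, that by the median of the known miRNAs, under which 50.3% of all miRNAs were called and the median log2 ratio of the 374 was 1.36. With the scaling by all miRNAs that median was -0.12. In IAA9sil the scalings differed less. sly-miR1919a was lower than ctrl in all 8, between -0.66 and -0.30, and sly-miR1917 higher in all 8, between 0.56 and 0.92. sly-miR1919c-5p was lower than ctrl in 5 and higher in 3, between -0.21 and 0.15. All scalings use the same counts, so their agreement is not repeated evidence. In both silenced libraries the interval of sly-miR1917 against ctrl included 0 with the median of all miRNAs, the median of ratios and TMM.

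**Figure D3:**
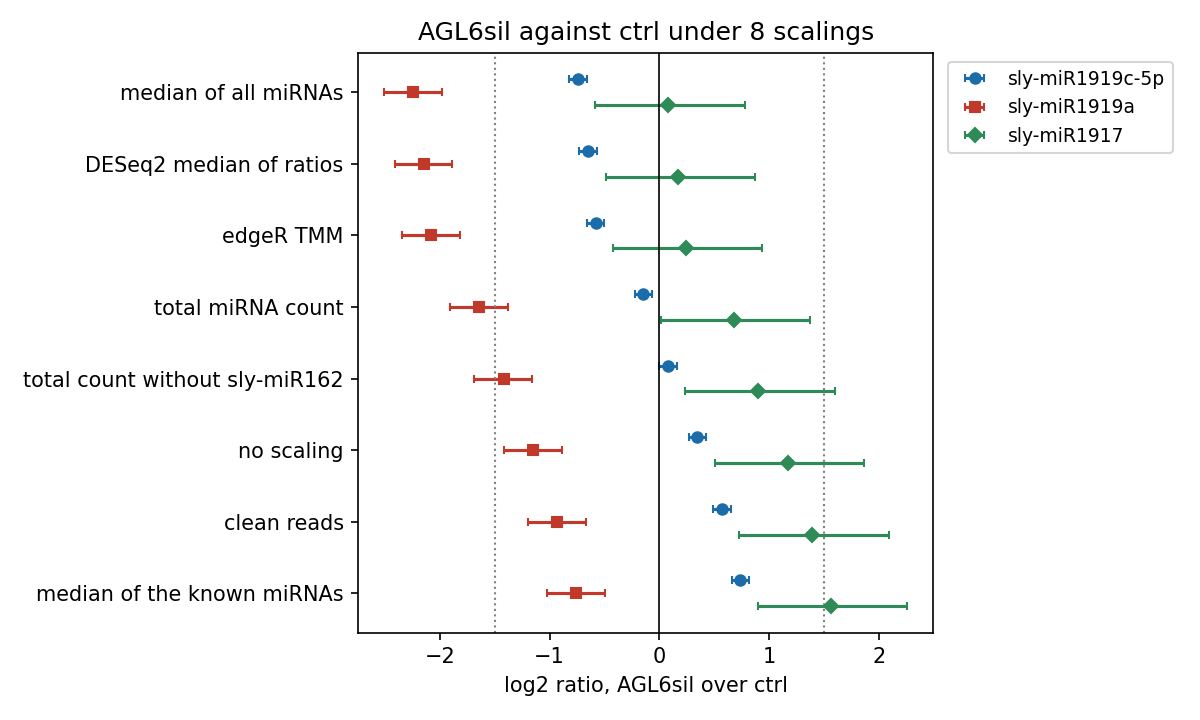
Log2 ratio of AGL6sil over ctrl (horizontal axis) for the 3 miRNAs with at least 50 reads under each of 8 scalings, ordered from the largest scaling factor of AGL6sil at the top to the smallest at the bottom; bars are 95% counting intervals and dotted lines mark a log2 ratio of 1.5 in either direction. All values move right by the same amount from one scaling to the next, so that sly-miR1919a stays below 0 throughout, sly-miR1917 above 0, and sly-miR1919c-5p crosses 0.

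Ratios between miRNAs of 1 library need no scaling, and by them the miR1919 rows differed from each other between libraries. The name sly-miR1919c-5p gives the 5p arm and the name sly-miR1919a gives none, so the rows may be of opposite arms. Reads of sly-miR1919a could also come from another miR1919 gene, since the assignment of shared sequences is not given. For each read of sly-miR1919a AGL6sil held 16.3 reads of sly-miR1919c-5p (interval 14.0 to 19.0), IAA9sil 7.89 (6.97 to 8.95) and ctrl 5.75 (5.16 to 6.42). The 3 intervals did not overlap. Relative to sly-miR1919c-5p, sly-miR1919a was thus lower by a log2 difference of -1.499 (exact conditional interval -1.78 to -1.23) in AGL6sil against ctrl and of -0.46 (-0.70 to -0.22) in IAA9sil against ctrl. Between AGL6sil and IAA9sil the same difference was -1.04 (-1.33 to -0.76). Both silenced libraries were set against 1 ctrl library, so a chance value in ctrl enters both. The sum of the miR1919 reads hid this difference. It came to 3037 in AGL6sil, against 2550 for IAA9sil and 2640 for ctrl, and mostly followed the more abundant sly-miR1919c-5p. Rows of other families also differed from each other in AGL6sil against ctrl, so such a gap is not particular to miR1919. sly-miR9470-5p was at -2.39 and sly-miR9470-3p at -0.84, and sly-miR6027-5p was at -2.20 and sly-miR6027-3p at -0.56. Other pairs were close, such as sly-miR9475-5p at -1.58 and sly-miR9475-3p at -1.53. How common such gaps were was not counted.

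**Figure D4:**
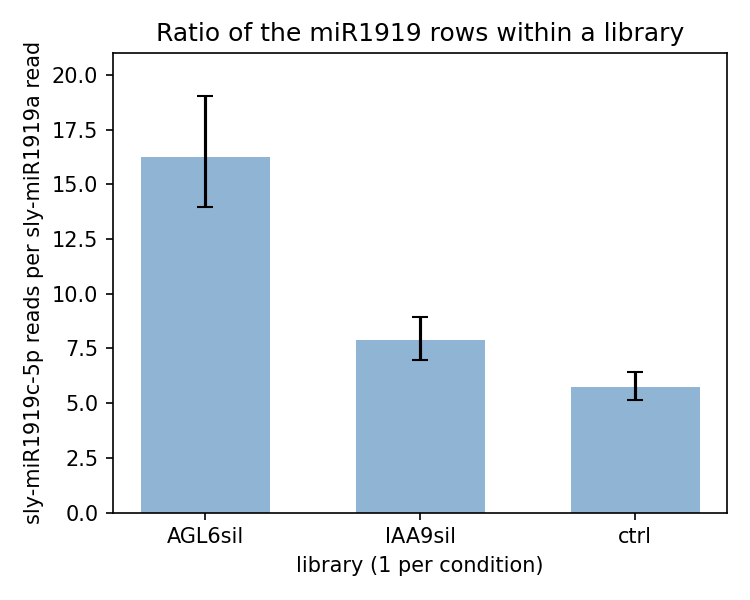
Reads of sly-miR1919c-5p per read of sly-miR1919a (vertical axis, from 0) within the AGL6sil, IAA9sil and ctrl libraries, 1 library per condition; bars are the ratios and error bars their 95% counting intervals. AGL6sil stood at 16.3, IAA9sil at 7.89 and ctrl at 5.75.

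sly-miR1917 differed from the miR1919 rows in the other direction. Relative to sly-miR1919c-5p it was higher by a log2 difference of 0.82 (0.15 to 1.52) in AGL6sil against ctrl and of 0.77 (0.06 to 1.501) in IAA9sil against ctrl. Between AGL6sil and IAA9sil the difference was 0.05 (-0.52 to 0.63), an interval that included 0. Relative to sly-miR1919a, sly-miR1917 was higher by 2.32 (1.60 to 3.07) in AGL6sil and by 1.22 (0.48 to 1.99) in IAA9sil, both against ctrl. The 28 reads of sly-miR1917 in ctrl limit the precision of each value against ctrl. Relative to sly-miR1919c-5p, sly-miR1916 had a difference of -0.35 (-1.63 to 0.94) in AGL6sil against ctrl, which cannot be told from 0 at its depth.

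The spread of the other known miRNAs gives the background of these values. The conserved families had 46 miRNAs past the read limit, with a median log2 ratio of -1.52 in AGL6sil against ctrl, and 23 of them were called lower and 2 higher. sly-miR391 and the miR390 rows were counted in these families, and again in the comparison with miR4376 at the end. Known miRNAs outside these families and outside the 5 described here numbered 42 past the limit, with a median of -0.51, 15 called lower and 2 called higher. sly-miR1919a lay below the medians of both lists and sly-miR1917 above both, whereas sly-miR1919c-5p lay above that of the conserved families and below that of the other known miRNAs. These positions do not depend on the scaling, but the medians and calls do. With the median of the known miRNAs the conserved families had a median of -0.04, with 10 called lower and 6 higher, and the other known miRNAs one of 0.98, with 4 called lower and 9 higher. With the clean reads the calls were 11 lower and 4 higher in the conserved families, and 4 lower and 7 higher among the other known miRNAs. In IAA9sil against ctrl the medians were -0.25 for the conserved families, with 5 called lower and 0 higher, and 0.15 for the other known miRNAs, with 1 called lower and 0 higher. These too depended on the scaling. The clean reads gave the conserved families a median of 0.09, with 2 called lower and 2 higher, and the other known miRNAs one of 0.49, with 0 called lower and 0 higher.

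By distance in the pair of log2 ratios to ctrl, over 3 libraries, the known miRNA nearest to sly-miR1919a was sly-miR171c, at 0.40. AGL6sil held 109, IAA9sil 120 and ctrl 203 of its reads. sly-miR1919c-5p was nearest to sly-miR9470-3p, at 0.10, of which AGL6sil held 3621, IAA9sil 3120 and ctrl 3037 reads. sly-miR1917 was nearest to sly-miR10538, at 0.22, with 96, 67 and 37 reads in the same order. These distances describe 3 libraries and carry no replicate error.

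**Figure D5:**
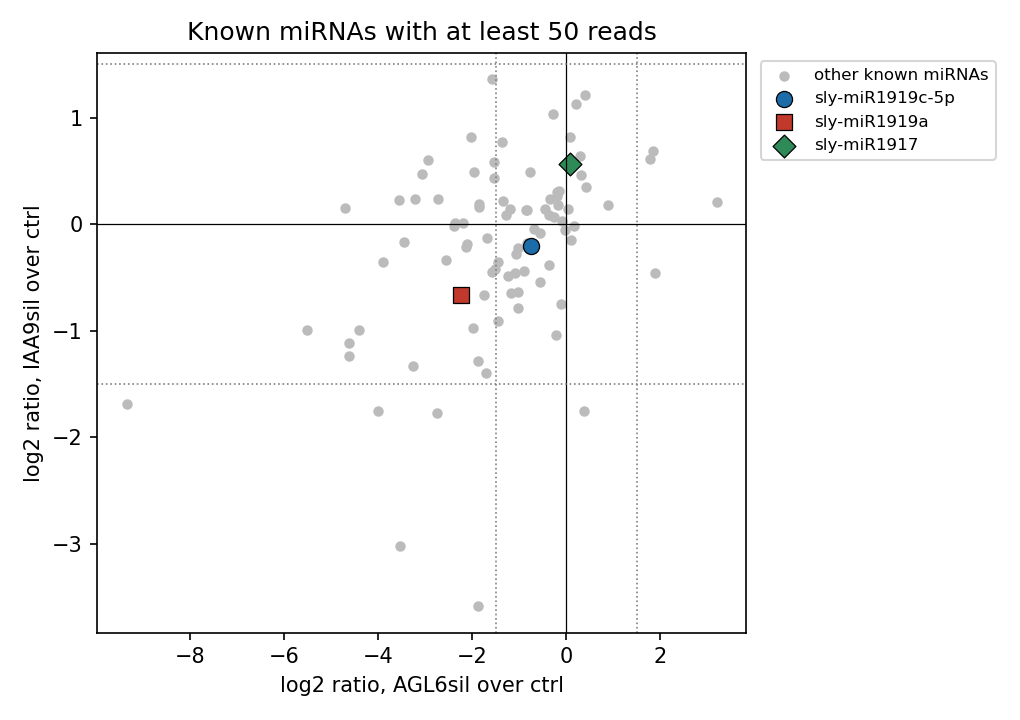
Log2 ratio of AGL6sil over ctrl (horizontal axis) against that of IAA9sil over ctrl (vertical axis) for the 91 known miRNAs with at least 50 reads, scaled by the median of all miRNAs; coloured symbols are sly-miR1919c-5p, sly-miR1919a and sly-miR1917, grey points the other known miRNAs, and dotted lines mark a log2 ratio of 1.5 in either direction. The axes share the ctrl library. sly-miR1919a lies left of the dotted line at -2.24 and -0.66, with 20 of the other known miRNAs further left.

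sly-miR391, which RefSeq equates with miR4376, had 929 reads in AGL6sil, against 876 for IAA9sil and 918 for ctrl. It was not called in any of the 3 comparisons. Its log2 ratio was -1.07 (-1.21 to -0.94) in AGL6sil against ctrl, where it was 49th of the 91 known miRNAs from the lowest, and -0.28 (-0.42 to -0.15) in IAA9sil against ctrl. Across the 8 scalings the ratio in AGL6sil ranged from -1.07 to 0.41 and was positive in 3. That in IAA9sil ranged from -0.28 to 0.07 and was positive in 2. With the total miRNA count the IAA9sil ratio was -0.09 (-0.22 to 0.05), an interval that included 0. Against this miRNA, too, sly-miR1919a was lower, by a log2 difference of -1.17 (-1.47 to -0.87) in AGL6sil against ctrl and of -0.38 (-0.64 to -0.12) in IAA9sil against ctrl. sly-miR1919c-5p was higher relative to sly-miR391 by 0.33 (0.17 to 0.49) in AGL6sil against ctrl, and in IAA9sil against ctrl the difference was 0.08 (-0.08 to 0.24). Of the 13 known rows of miR390, miR391, miR482 and miR5300, listed for comparison with miR4376, 5 were called lower and 1 higher in AGL6sil against ctrl, with a median log2 ratio of -1.07. With the median of the known miRNAs 2 were called lower and 1 higher, and the median turned to 0.41. With the clean reads it was 0.24.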

How the data were processed

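Small RNA libraries of AGL6sil, IAA9sil and ctrl ovaries, 1 per condition, were analysed, with groups taken from the treatment labels. The deposited counts were made by the authors, who removed low-quality and adapter reads, kept reads of 18 to 30 nt, mapped them with Bowtie, matched them to miRBase (release 21 in their Results, 20.0 in their Methods) or to predicted precursors and counted reads per mature miRNA, without normalization. The genome build is not given in the sources used here. How reads were assigned where miRNAs share a sequence is also not given, so counts of close family members are uncertain.

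Counts were divided by the library median over all 634 miRNAs relative to ctrl. Log2 ratios had no pseudocount, and a count of 0 was taken as 3. Each ratio has a 95% Clopper-Pearson interval from its 2 counts, and exact conditional odds ratios were used between miRNAs. With 1 library per condition there are no replicates and no significance test. The other scalings were the median of the known miRNAs, the median of ratios (DESeq2 1.42.0), TMM (edgeR 4.0.16 in R 4.3.3), the total miRNA count, this total without sly-miR162 (chosen after seeing the data), the clean reads given by the study and no scaling. Intervals were computed with scipy 1.17.1 in Python 3.11.15. The calls and intervals were tested on simulated data with counting error alone and as many miRNAs raised as lowered. That test covers neither the choice of scaling nor differences between replicates.

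Every miRNA found by the rule is named, with the known miRNA nearest to each one past the read limit and the known miRNA with the most reads. sly-miR391 was added after its values were seen. The miRNAs and lists were chosen with earlier results of these data known. Reads on hairpins, predicted targets and qRT-PCR were not analysed here.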

Additional observations from a re-analysis of the deposited data

How the results depend on the processing

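In AGL6sil against ctrl, 1 of the 5 miRNAs was called, and so were 21.4% of the 374 miRNAs past the read limit. The number was 0 with the clean reads as the scale, where 22 of the 374 were called lower and 139 higher. It was also 0 without scaling (25 lower, 102 higher) and with the total count without sly-miR162 (28 lower, 72 higher), a scaling added after seeing the data. A 1.5-fold threshold gave 2, adding sly-miR1919c-5p, and under it 52.4% of all miRNAs past the read limit were called. With the median of the known miRNAs the number was 1, where 50.3% of the 374 were called. There sly-miR1917 was called higher and sly-miR1919a, at -0.76, was not called. In IAA9sil against ctrl 0 were called, where 6.95% of the 374 were, and 1, sly-miR1919a, with a 1.5-fold threshold, under which 37.2% of all were called. In AGL6sil against IAA9sil the single call was sly-miR1919a, where 21.4% of the 374 were called. The number became 0 with the median of the known miRNAs (21 of the 374 called lower, 147 higher), TMM (42 and 32) and the total count (39 and 43). The same held for the total without sly-miR162 (36 and 45), the clean reads (22 and 100) and no scaling (23 and 91). It was also 0 where the whole counting interval had to pass the threshold. The other alternatives, the median of ratios, a pseudocount of 1, no read minimum and 50 reads in the larger library, left all 3 numbers as they were. Of 120 single log2 ratios recomputed under another scaling or with the pseudocount, 39 moved outside their counting interval. A change of sign was counted only for called ratios, which were those of sly-miR1919a in AGL6sil against ctrl and against IAA9sil, and 0 of these changed sign. Several ratios that were not called did change sign, such as that of sly-miR1919c-5p in AGL6sil against ctrl, from -0.74 to 0.74. Leaving out a library was not possible with 1 per condition. No paired analysis was possible because each condition has 1 library. Counting shared miR1919 sequences once was not run, because 1 mature sequence was at hand. Depth limited sly-miR1916 and sly-miR1918, whose intervals included 0 in every comparison under the scaling by all miRNAs.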
